A study of Ovis aries with 6 samples.

Results

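The 10 gene names of NAD synthesis, nicotinamide methylation and transhydrogenation considered here were looked up in a table of 24390 sheep genes, and 8 were found: NMRK1, NMRK2, NMNAT1, NMNAT3, ACMSD, QPRT, NADSYN1 and NNT. The names NAMPT and NNMT had no row, so the main nicotinamide salvage step and nicotinamide methylation itself were not analysed here. The set was assembled because NMRK2 and ACMSD differed in opposite directions between the stages compared below, so the members' own differences between stages are given as descriptions, without tests. All 8 had enough counts to enter the fit of 13624 genes.

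Total RNA came from the perirenal fat depot, which surrounds the kidney, of wild-type Merino sheep of pure breed. Fetal samples were taken from 3 animals 132 days after conception, 150 days being full term. The other 3 animals were weaned lambs, whose age the labels give as 80 days after birth, as 89 days and as 12 weeks. The labels state that no treatment was applied, yet each lamb title ends in VEH, an abbreviation they do not explain. This is whole tissue, so fewer cells of a type and less RNA per cell cannot be told apart in any value below.

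NAD carries electrons between metabolic enzymes and is used up by sirtuins, poly-ADP-ribose polymerases and NAD glycohydrolases, so cells rebuild it all the time. It is made from nicotinamide, from nicotinamide riboside (phosphorylated by NMRK1 and NMRK2), from nicotinic acid, or de novo from tryptophan. All routes meet at the NMNAT enzymes, which join the mononucleotide to an adenylyl group. In brown fat, a tissue rich in mitochondria, NAD feeds the respiratory chain, and the transhydrogenase NNT uses the proton gradient to pass electrons from NADH to NADP.

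Levels below are counts relative to library size (CPM) scaled with TMM factors, which compare a gene between libraries. The fetal libraries held between 17535892 and 19150428 counts and the lamb libraries between 15907128 and 17263780. The 8 general adipocyte markers found (of 9) summed to 13330 to 16654 CPM in fetal and 27145 to 37720 CPM in lamb libraries, mostly from ADIPOQ and FABP4, with 5 called higher, CEBPA lower (-1.31), and PLIN1 (0.06) and LEP (-0.0035) not past the test. Differences are log2 values, lamb minus fetal, with their SE from edgeR and n = 3 animals per stage. Among all genes tested, 6095 were called at an adjusted p below 0.05, which is 44.7%, and in 57.7% the stages did not overlap. Of the members, 5 were past that threshold, 3 lower and 2 higher in lambs, and the same 5 had stages that did not overlap, but the members were chosen on this contrast and nothing is read from these counts. The median log2 difference of the members was -0.21, against -0.01 over all genes tested, and it was 0.26 with libraries scaled by their totals and -0.48 without lamb library 3.

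**Figure D1:**
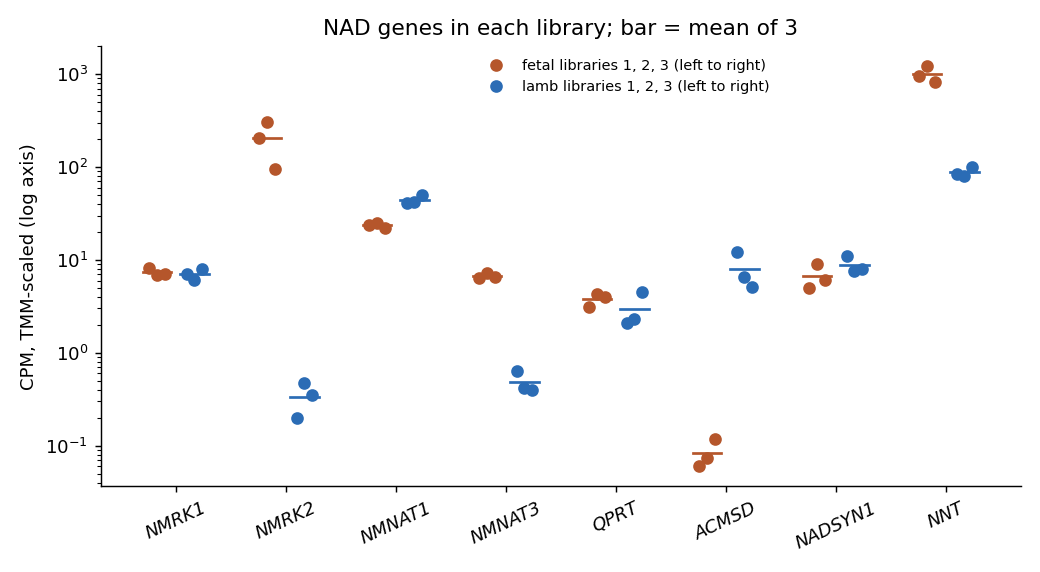
Level of each of the 8 genes in the 3 fetal (brown) and 3 lamb (blue) libraries, as TMM-scaled CPM on a log axis, with a bar at the mean of 3. NMRK2 goes from 203 to 0.338 CPM and ACMSD from 0.0842 to 7.96 CPM on average, while the stages overlap for NMRK1, QPRT and NADSYN1.

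The riboside kinases differed sharply from each other. NMRK2, the kinase best known from skeletal and heart muscle (ENSOARG00000011323, chromosome 5, 17629206 to 17633291 on Oar v3.1), was at 204, 310 and 95.8 CPM in fetal libraries 1, 2 and 3. In lamb libraries 1, 2 and 3 it was at 0.198, 0.467 and 0.350 CPM, from 4, 9 and 7 counts. Every fetal value lay far above every lamb value. The log2 difference was -9.21 ± 0.60, and only 5 of the genes tested had a lower one. The fold between stages from summed counts, adjusted for TMM-scaled library size, was 584, with a 95% exact interval of 378 to 956 that covers counting error only. The difference stayed between -9.55 and -8.67 over all alternatives.

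NMRK1, the broadly expressed kinase of the same family (ENSOARG00000012574, chromosome 2, 61219642 to 61228945), was at 8.13, 6.91 and 7.04 CPM in fetal libraries 1, 2 and 3. Lamb libraries 1, 2 and 3 had 7.02, 6.12 and 7.90 CPM. The stages overlapped, and the log2 difference was -0.07 ± 0.18. It was 0.40 with scaling by library totals and 0.02 without lamb library 2. Because RPKM, which divide reads by transcript length and library size, allow genes to be compared within a library, the authors' stage means show the balance of the pair. NMRK2 made up 94.3% of their joint mean RPKM in fetuses and 3.00% in lambs. Their joint mean was 225 RPKM in fetuses and 16.6 RPKM in lambs, with NMRK1 at 12.9 and 16.1 RPKM.

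NMRK2 was also uneven among the fetuses. The highest fetal library stood 3.23 times above the lowest, and 95.9% of genes tested had a smaller ratio, whose median over all genes was 1.27. NMRK1 had a ratio of 1.18. By a root mean square distance between log2 CPM profiles over the 6 libraries, the gene nearest to NMRK2 was DIO1, which encodes a thyroid hormone deiodinase. DIO1 was at 152, 207 and 52.2 CPM in fetal libraries 1, 2 and 3 and at 0.395, 0.882 and 0.650 CPM in the lamb libraries, so both genes had the same order of libraries in each stage. In lambs that order rests on few counts, 8, 17 and 13 of DIO1 and 4, 9 and 7 of NMRK2. Also near were the keratin genes KRT7 and KRT5 and the deiodinase gene DIO2, at distances of 1.04 to 1.33 against 0.70 for DIO1. Such distances mostly follow the difference between stages and are a description only.

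Markers of other tissues also differed between the fetal libraries. The summed level of 11 urothelium markers was 189, 75.1 and 54.8 CPM in fetal libraries 1, 2 and 3 and 0.700 to 0.934 CPM in the lambs, with 9 of 9 tested markers lower in lambs and PSCA at 0 counts in every library, although the authors' mean RPKM for PSCA was 105 in fetuses and 142 in lambs. The 10 skeletal muscle markers found (of 13) summed to 145, 37.1 and 55.3 CPM in fetal libraries 1, 2 and 3 and to 20.9 to 26.7 CPM in lambs, with 3 of 6 tested lower and MYOD1 at 0 throughout. The urothelium and muscle sums were highest in fetal library 1, and NMRK2 was highest in fetal library 2. Among the muscle markers, MB shared the fetal order of NMRK2, at 6.46, 7.06 and 2.45 CPM in fetal libraries 1, 2 and 3. MB had 2, 1 and 2 counts in lamb libraries 1, 2 and 3 and was called lower (log2 difference -5.87). Among the fetal libraries, ACTA1, CKM, MYH1, MYLPF, TNNI2, TNNC2, PYGM and CASQ1 were highest in fetal library 1. Of the tested muscle markers that did not pass, ACTA1 had a log2 difference of -2.67, PYGM of 0.62 and CASQ1 of 0.22. Without fetal library 1 the NMRK2 difference was -9.21, as with all libraries. The urothelium and muscle sums of fetal libraries 2 and 3 were also above those of the lambs. Leaving out fetal library 1 therefore does not remove the difference in either sum. The 9 brown adipocyte markers found (of 10) summed to 2188, 2889 and 1712 CPM in fetal libraries 1, 2 and 3, and to 533 to 679 CPM in lambs, with 6 of 8 tested lower. UCP1 made up 1632, 2164 and 1103 CPM of the fetal sums. UCP1 and COX7A1 shared the order of NMRK2 among the fetal libraries, while CIDEA, EBF2 and PRDM16 were highest in fetal library 3, DIO2 in fetal library 1, and PPARGC1A and CPT1B were lowest in fetal library 1. The part of these tissues and cells in the NMRK2 level was not tested.

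**Figure D2:**
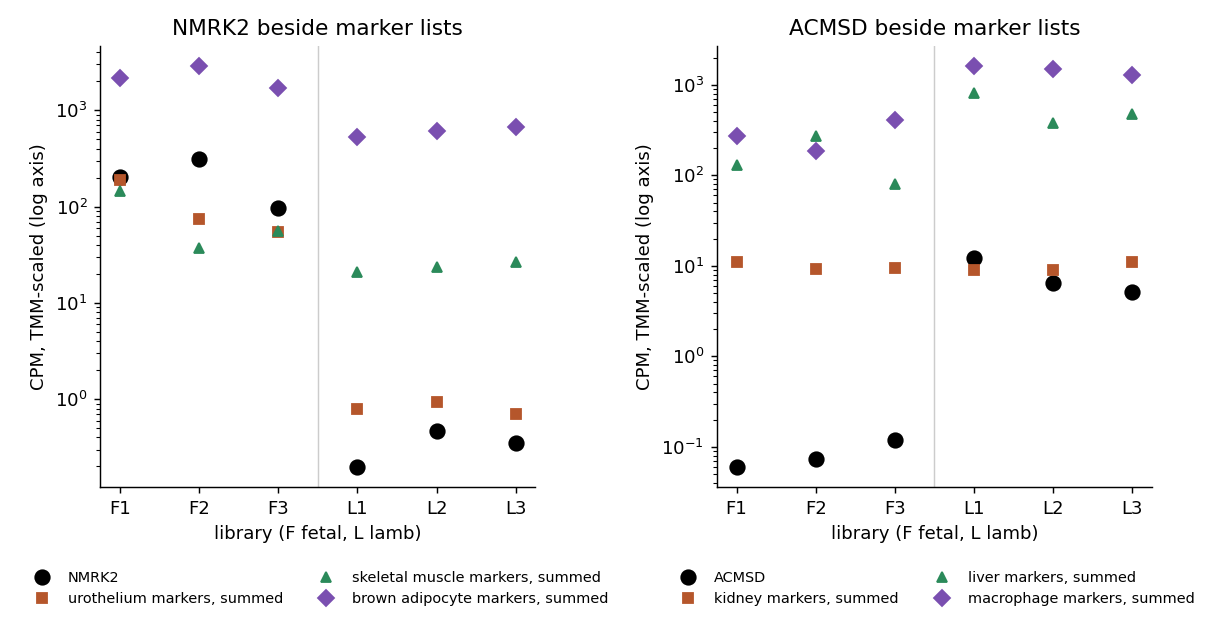
NMRK2 (left) and ACMSD (right) in each library beside the summed levels of marker lists, all as TMM-scaled CPM on log axes. NMRK2 peaks in fetal library 2 at 310 CPM, the urothelium and muscle sums peak in fetal library 1, and the kidney sum stays between 8.89 and 11.0 CPM in all 6 libraries.

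NMRK2 lies inside a longer gene model known by identifier only (ENSOARG00000011202, chromosome 5, 17600694 to 17687426), which had between 0 and 6 counts per library although the authors' mean RPKM for it was 1011 in fetuses and 201 in lambs. None of the other 7 members overlapped another gene model. Of the 2 nearest tested genes with a symbol on each side of NMRK2, DAPK3, a death-associated protein kinase gene that ends 10616 bases before it, was higher in lambs (log2 difference 2.22 ± 0.19, edgeR adjusted p = 1.62e-04). EEF2, the translation elongation factor gene, was at -0.28 ± 0.16 (edgeR adjusted p = 0.195), and at 0.20 with scaling by library totals. MATK and MRPL54, on the far side, were at 0.41 ± 0.41 and 0.13 ± 0.15 and did not pass, except that MRPL54 passed with scaling by library totals (0.61). So 1 of these 4 neighbours was called, in the direction opposite to NMRK2, too few genes to set against the 44.7% called over all genes tested.

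The NMNAT enzymes also diverged. NMNAT1, the nuclear enzyme (ENSOARG00000006756, chromosome 12, 41715890 to 41743897), had 24.0, 25.1 and 22.2 CPM in the fetuses, against 40.7, 42.1 and 50.3 CPM in the lambs. The stages did not overlap, and the log2 difference was 0.90 ± 0.12. It lay between 0.80 and 1.38 over all alternatives, the highest value coming with scaling by library totals. NMNAT3, the mitochondrial enzyme (ENSOARG00000006956, chromosome 1, 247503993 to 247565353), had 6.40, 7.21 and 6.51 CPM in the fetuses, against 0.642, 0.415 and 0.400 CPM in the lambs, from 13, 8 and 8 lamb counts. The log2 difference was -3.76 ± 0.28, a 13.6-fold lower level in lambs. NMNAT2, the isoform best known from neurons, was no member and was at 3.51 ± 0.718 CPM (SD, n = 3) among fetuses and 3.53 ± 0.714 CPM among lambs.

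For NMNAT3 the size of the difference depended on which deposited column was read. Its authors' mean RPKM was 17.004 in fetuses and 10.5 in lambs, only 1.61-fold lower in lambs. Across 13623 genes the log2 ratio of mean RPKM lay a median of 0.45 above the count-based difference, and after removing that offset NMNAT3 was at -1.14 by RPKM against -3.76 by counts. ACMSD was at 3.82 by RPKM against 6.44 by counts. These were the only 2 members that departed by more than 1 log2 unit, as 2.496% of all genes did. In NMNAT3 the count divided by RPKM and by library size (scaled alike in all libraries) was 0.346 in fetal library 1 and 0.0412 to 0.0730 in the lambs. In ACMSD the same quantity was 0.0753 in fetal library 1, from 1 count, and 0.673 to 0.804 in the lambs. In NADSYN1 it was 0.861 in fetal library 1 and 1.58 to 1.90 in the lambs. After removing the offset NADSYN1 was at -0.13 by RPKM against 0.39 by counts. In NMRK2 the quantity was 0.773 in fetal library 1 and 0.802 to 0.813 in the lambs. What separates the columns was not tested. The direction was the same in both columns for NMNAT3, ACMSD, NMRK2, NMNAT1 and NNT.

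**Figure D3:**
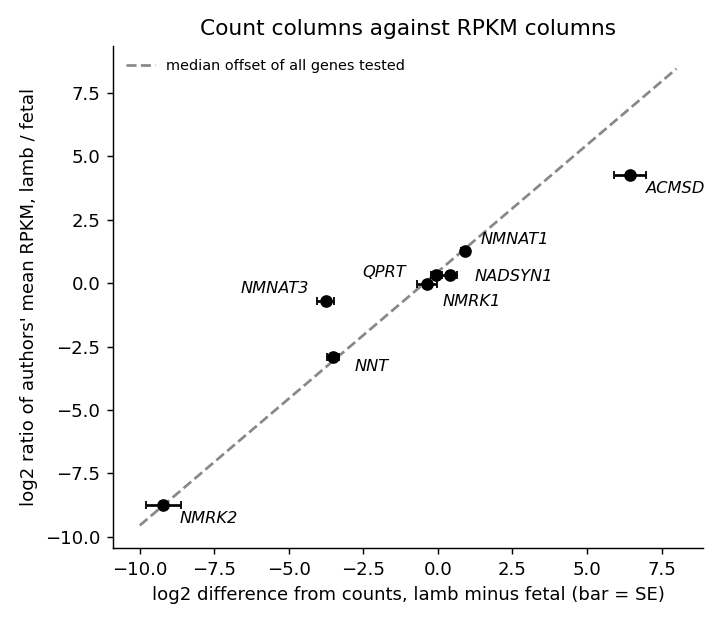
Log2 difference of each gene from the counts (horizontal, bar = SE) against the log2 ratio of the authors' mean RPKM (vertical); the dashed line marks the median offset of 0.45 over all genes. NMNAT3 lies 2.62 log2 units above that line and ACMSD at -2.62 below it, while the other 6 genes are closer.

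ACMSD encodes the decarboxylase that draws an intermediate of tryptophan breakdown away from quinolinate, and so away from de novo NAD synthesis (ENSOARG00000011350, chromosome 2, 174823736 to 174885379). It had 1, 1 and 2 counts in fetal libraries 1, 2 and 3 (0.0598, 0.0736 and 0.119 CPM). In the lamb libraries it had 247, 126 and 103 counts (12.2, 6.54 and 5.15 CPM). Every lamb value was far above every fetal value, and lamb library 1 stood apart at the top. The log2 difference was 6.44 ± 0.54, and 12 of the genes tested had a higher one. The ratio of summed counts, adjusted for TMM-scaled library size, was 94.1, with a 95% exact interval of 36.5 to 347 for counting error only, wide because the fetal counts sum to 4. Without lamb library 1 the difference was 5.99.

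QPRT encodes the enzyme that turns quinolinate into the mononucleotide (ENSOARG00000005716, chromosome 24, 26506332 to 26507999). It had 3.11, 4.34 and 3.999 CPM in the fetuses, against 2.08, 2.34 and 4.50 CPM in the lambs. The stages overlapped, with lamb library 3 above the other lambs and above all fetuses. The log2 difference was -0.36 ± 0.34, and it was 0.12 with scaling by library totals and -0.79 without lamb library 3.

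Several genes upstream of ACMSD and QPRT had few counts, and IDO1 had no row. HAAO, which makes the substrate of ACMSD, had 4, 1 and 3 counts in fetal libraries 1, 2 and 3 and 34, 14 and 0 in the lambs, too few to be tested, and was named after its values were seen, as were KMO, TDO2 and IDO2. KMO, the kynurenine hydroxylase gene, had between 0 and 2 counts in every library, as did IDO2. TDO2, which opens the tryptophan ring, had 3 counts in fetal library 2 and 0 in each of the other 5 libraries. KYNU, which follows KMO, had 0.521 ± 0.222 CPM in the fetuses and 0.873 ± 0.347 CPM in the lambs (SD, n = 3; log2 difference 0.72 ± 0.48, edgeR adjusted p = 0.257).

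ACMSD is known from kidney and liver, and the tissue sampled lies around the kidney. All 14 kidney markers had a row. Their sum was 9.27 to 11.0 CPM in fetuses and 8.89 to 10.9 CPM in lambs, edgeR called 0 of 5 tested (also 0 at an unadjusted p below 0.05, and 0 with DESeq2), and SLC34A1 and AQP2 were at 0 in every library. Low-count kidney markers were highest in lamb library 1, as ACMSD was, with 9, 0 and 0 counts of SLC5A12, 6, 0 and 0 of CDH16 and 5, 1 and 1 of SLC12A1 in lamb libraries 1, 2 and 3. The summed level, carried mostly by SLC5A2 and CUBN, was highest in lamb library 3. The part of kidney cells in the ACMSD level was not tested. The 12 liver markers summed to 81.0 to 272 CPM in fetuses and 380 to 819 CPM in lambs, 1 of 6 tested being higher (ALB) and 3 lower (APOA1, SERPINA1 and AHSG). ALB made up 793 of the 819 CPM in lamb library 1. FGB was also highest there among the lambs, at 10.3, 1.92 and 3.35 CPM in lamb libraries 1, 2 and 3. So were HPD (16, 4 and 1 counts), F2 (1.14, 0.415 and 0.400 CPM), APOA1, APOB and SERPINA1. TTR (2, 9 and 4 counts), AHSG (9, 14 and 6) and CPS1 (0, 5 and 1) were highest in lamb library 2. APOA2 (4, 2 and 5 counts) was highest in lamb library 3, and TAT was at 0 in all lambs. The 13 macrophage markers summed to 183 to 408 CPM in fetuses and 1301 to 1617 CPM in lambs, with 8 of 11 tested higher. The part of liver cells and of macrophages in the ACMSD level was not tested.

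The genes whose profile lay nearest to that of ACMSD were RBP4, a retinol carrier of adipose tissue and liver, and TRPM2, a calcium channel gated by ADP-ribose, at distances of 0.39 each. TRPM2 had 7.53, 7.06 and 7.64 CPM in the fetuses and 588, 381 and 128 CPM in the lambs, the lamb libraries in the same order as for ACMSD. RBP4 had 26.7 ± 5.61 CPM in the fetuses and 1045 ± 202 CPM in the lambs (SD, n = 3). NR4A3, KCNK3 and PFKFB3 followed at 0.54 to 0.58. The order of these genes depends on the pseudocount of 0.1 CPM, because ACMSD was at only 0.0598 to 0.119 CPM in fetuses. Here too the distances mostly follow the difference between stages and are a description only. None of the 4 nearest genes on chromosome 2 was called, again too few to set against the 44.7% over all genes tested. CCNT2 was at 0.29 ± 0.15 and RAB3GAP1 at 0.03 ± 0.13 before ACMSD, and NHP2L1 at -0.17 ± 0.13 and TMEM163 at 0.02 ± 0.46 after it (edgeR adjusted p between 0.143 and 0.972). CCNT2 passed on leaving out lamb library 2 (0.43). Scaling by library totals brought both CCNT2 (0.76) and RAB3GAP1 (0.51) past the threshold. TMEM163 was at -0.59 without lamb library 2, -0.10 without fetal library 1 and -0.05 without fetal library 2, and RAB3GAP1 at -0.07 without lamb library 2.

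NADSYN1, the synthetase that amidates the last intermediate of the de novo and nicotinic acid routes (ENSOARG00000001571, chromosome 21, 47597876 to 47626025), had 5.02, 8.97 and 6.15 CPM in the fetuses, against 10.9, 7.58 and 7.90 CPM in the lambs. The stages overlapped through fetal library 2, and the log2 difference was 0.39 ± 0.26. It was 0.66 without fetal library 2, 0.21 without lamb library 1, 0.22 without fetal library 1 and 0.90 with scaling by library totals.

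NNT, the transhydrogenase of the inner mitochondrial membrane (ENSOARG00000008573, chromosome 16, 31124651 to 31216832), was the member with the most counts. It had 958, 1228 and 824 CPM in the fetuses, against 84.3, 81.1 and 99.0 CPM in the lambs. The stages did not overlap, the log2 difference was -3.51 ± 0.20, an 11.4-fold lower level in lambs, and it stayed between -3.63 and -3.01 over all alternatives. By mean RPKM NNT went from 188 to 25.1. Like NMRK2, NNT was highest in fetal library 2 and lowest in fetal library 3 among the fetuses.

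Compared per length, NMRK2 (212 RPKM) and NNT (188 RPKM) headed the fetal order, followed by NMNAT3 (17.004), NMRK1 (12.9), NMNAT1 (11.5), NADSYN1 (4.87), QPRT (3.46) and ACMSD (0.672). These fetal means carry no spread, because only 1 of the 3 fetal RPKM columns has an unambiguous name, so close neighbours in that order are not ranked. In lambs the order was NMNAT1 (27.6 RPKM), NNT (25.1), NMRK1 (16.1), ACMSD (12.96), NMNAT3 (10.5), NADSYN1 (6.06), QPRT (3.37) and NMRK2 (0.498). Among single lamb libraries NMNAT1 overlapped NNT, ACMSD (8.86 to 20.2 RPKM) overlapped NMRK1, and NMNAT3 (9.05 to 12.2 RPKM) overlapped ACMSD, while NNT and NMRK1, NMNAT3 and NADSYN1, NADSYN1 and QPRT, and QPRT and NMRK2 did not overlap. The lamb place of NMNAT3 rests on RPKM alone. Its lamb counts (13, 8 and 8) were far lower relative to RPKM than in fetal library 1. NMNAT3 is therefore not ranked against NADSYN1 or QPRT in lambs. NMRK2 was thus among the highest 2 of the 8 in fetuses, unranked against NNT, and the lowest in lambs.

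**Figure D4:**
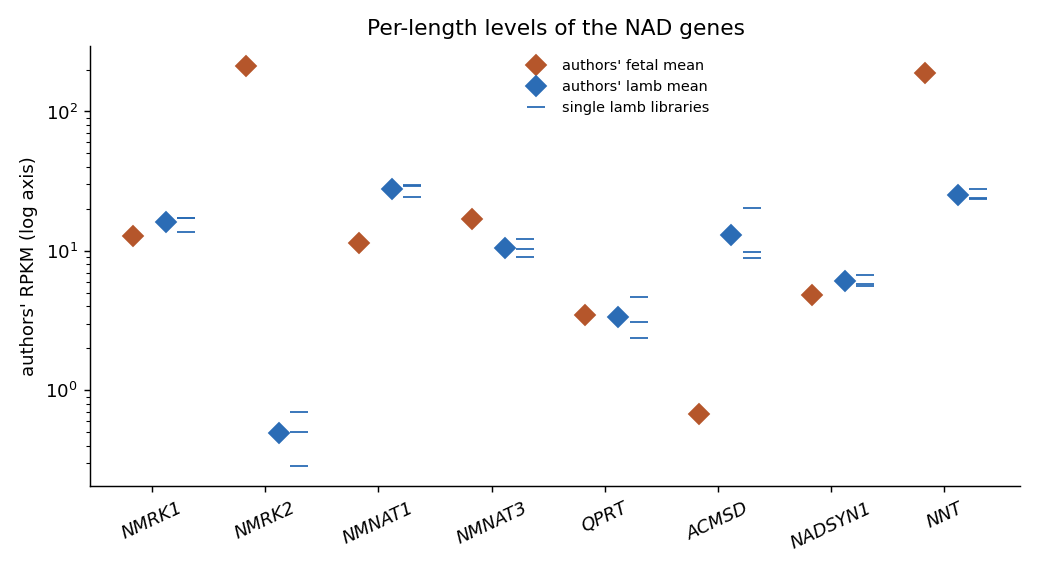
The authors' mean RPKM of each gene in fetuses (brown) and lambs (blue) on a log axis, with dashes for single lamb libraries. NMRK2 lies at 212 RPKM in fetuses, near NNT at 188 RPKM, and at 0.498 RPKM in lambs, below the other 7 genes, and ACMSD lies at 0.672 and 12.96 RPKM.

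Other genes of NAD metabolism, in 5 lists that do not contain the members, were tested in the same fit. In that fit 22.0% of all genes were called higher and 22.7% lower in lambs. The lists were chosen with earlier results of these data known, and the called genes named are mainly those of largest difference. Of 15 symbols for tryptophan and nicotinic acid routes and for further NAD enzymes, 12 had a row and 8 were tested, of which 5 were called lower and none higher (median -0.80). The count of higher genes was also 0 at an unadjusted p below 0.05 and with DESeq2. AADAT and CCBL2, aminotransferases that turn kynurenine into kynurenate, fell from 134 ± 13.5 to 58.3 ± 10.8 CPM (log2 difference -1.20 ± 0.16, edgeR adjusted p = 9.70e-04) and by 1.12 ± 0.21. The formamidase gene AFMID fell by 1.74 ± 0.53 (edgeR adjusted p = 0.0295). Scaling by library totals removed that call (0.0695), as did the replicate block. Leaving out fetal library 3 (0.112) or lamb library 1 (0.0908) or 3 (0.0813) also removed it. The adjusted p of AFMID ran from 0.00533 to 0.112 over all alternatives. NADK, which phosphorylates NAD to NADP, was called lower as well and went from 315 ± 36.0 to 166 ± 6.87 CPM, and was named after its values were seen. With scaling by library totals 3 of the 8 were lower.

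Of 23 enzymes tested that consume NAD, 5 were higher and 5 lower, near the shares over all genes, and 13 did not pass (median -0.15), whereas scaling by library totals gave 8 higher and 1 lower (median 0.33). SIRT1, the nuclear deacetylase, rose from 41.2 ± 0.935 to 100.5 ± 5.07 CPM (log2 difference 1.28 ± 0.10, edgeR adjusted p = 1.25e-04). TIPARP, a mono-ADP-ribosyltransferase gene, rose by 0.86 ± 0.19, and BST1, an ADP-ribosyl cyclase gene, by 0.80 ± 0.24. The BST1 call was lost without fetal library 2, fetal library 3, lamb library 1 or lamb library 3 (adjusted p between 0.00318 and 0.0820 over all alternatives). PARP10 fell by 1.14 ± 0.17, the cytosolic deacetylase gene SIRT2 by 0.79 ± 0.14 and PARP1, the main DNA-damage polymerase, by 0.67 ± 0.13. Neither SIRT2 nor PARP1 passed with scaling by library totals, where they were at -0.32 and -0.22. The number of higher genes was 3 without fetal library 1 or lamb library 3 and 2 without fetal library 2, fetal library 3 or lamb library 1.

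Genes that break down or carry NAD and its precursors included the largest difference among the tested genes of the 5 lists. Higher levels in lambs were called for 4 of 9 tested and lower levels for 2 (median 0.35). AOX1, the aldehyde oxidase that oxidises methylated nicotinamide among other substrates, was at 63.2, 59.7 and 30.0 CPM in fetal libraries 1, 2 and 3 and at 1675, 1855 and 1483 CPM in lambs. Its log2 difference was 5.04 ± 0.33 (edgeR adjusted p = 6.58e-05), every lamb lay above every fetus, and it stayed between 4.77 and 5.54 over all alternatives. NT5E, the cell-surface nucleotidase that releases nicotinamide riboside and adenosine, rose by 1.68 ± 0.32, from 1.13 ± 0.346 to 3.66 ± 0.783 CPM. Of the equilibrative nucleoside transporter genes, SLC29A1 fell from 202 ± 11.7 to 47.6 ± 10.8 CPM (log2 difference -2.09 ± 0.18, edgeR adjusted p = 1.53e-04) and SLC29A2 rose by 1.27 ± 0.24, from a level of 1.95 ± 0.302 CPM. The number of lower genes was 1 without any 1 of the fetal libraries, lamb library 2 or lamb library 3.

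Nicotinamide methylation uses S-adenosylmethionine, and 12 of 17 genes of that methyl donor cycle were tested. Lower levels were called for 5 and higher ones for 3 (median -0.10), and with scaling by library totals 5 were higher and 4 lower (median 0.38). AHCYL1, a relative of adenosylhomocysteinase, fell by 2.12 ± 0.16, and the adenosine kinase gene ADK fell by 1.20 ± 0.20. CTH, the last enzyme on the path from homocysteine to cysteine, rose from 3.08 ± 0.597 to 54.9 ± 31.3 CPM (log2 difference 4.15 ± 0.49, edgeR adjusted p = 5.54e-04), with lamb library 1 at 22.6 CPM, below the other lambs at 85.1 and 57.2 CPM.

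Among 15 tested genes that supply or use NADPH, as NNT does, levels were lower in 8 and higher in 3 (median -0.66), and 5 fell with scaling by library totals. IDH2, the mitochondrial isocitrate dehydrogenase, was at 562, 910 and 528 CPM in fetal libraries 1, 2 and 3 and 24.95, 22.5 and 25.2 CPM in lambs (log2 difference -4.78 ± 0.26, edgeR adjusted p = 4.20e-05). TXN2, the mitochondrial thioredoxin, fell by 2.61 ± 0.20, and the cytosolic IDH1 by 2.59 ± 0.35. ALDH1L2, a mitochondrial folate enzyme that also makes NADPH, rose from 45.2 ± 5.53 to 286 ± 37.9 CPM (log2 difference 2.66 ± 0.16, edgeR adjusted p = 5.07e-05).

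**Figure D5:**
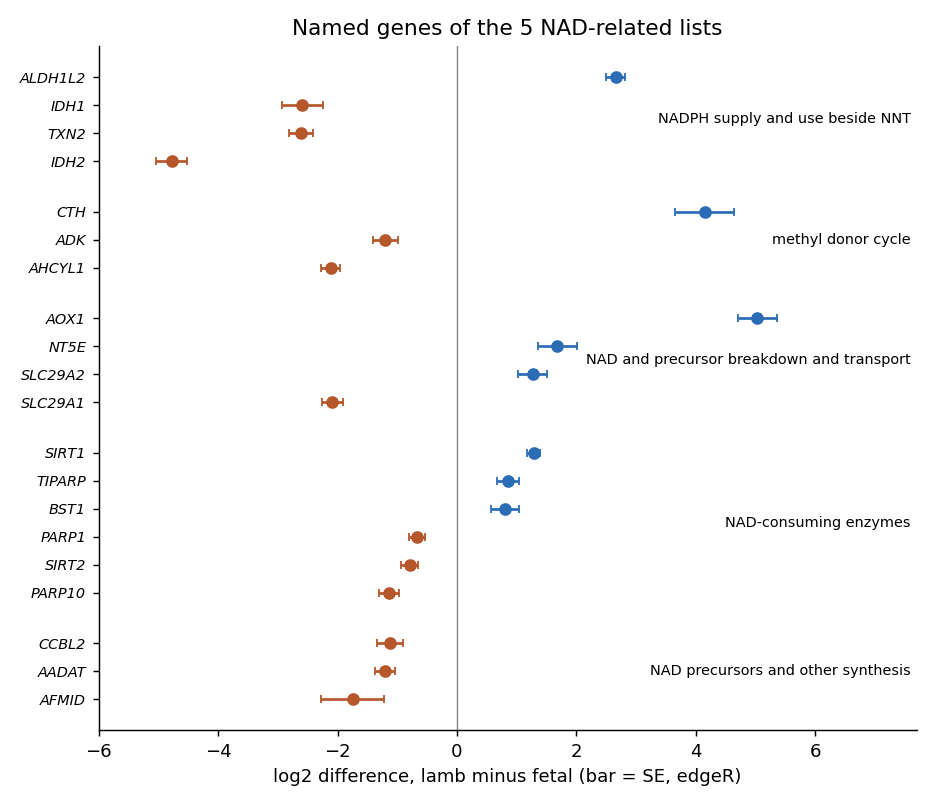
Log2 difference, lamb minus fetal, with its SE from edgeR (n = 3 per stage) for named genes of the 5 lists; blue points are higher and brown points lower in lambs. AOX1 at 5.04 and IDH2 at -4.78 mark the ends of the range.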

How the data were processed

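Perirenal fat RNA from 3 fetuses and 3 lambs was sequenced as single-end 50 bp reads. Per the series' design text, the authors used CLC Genomics Workbench 7.0 to map quality-filtered reads to Oar v3.1 gene models of Ensembl (release 74). How multiply placed reads and strand were handled is not stated there, so reads of overlapping genes on opposite strands cannot be told apart. The deposited columns used are whole-number read counts and the authors' RPKM, which served for description only. Another 14 per-library columns were not used, among them 2 RPKM columns that share a header.

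Counts were fitted in R 4.3.3 with edgeR 4.0.16 (filterByExpr, TMM, quasi-likelihood F test, no covariates, Benjamini-Hochberg over 13624 genes), and checked on simulated counts. CPM are counts scaled by TMM-adjusted library size. Alternatives were DESeq2 1.42.0, other scaling, no filter, each library left out and a replicate block. Members and lists were chosen with earlier results of these data known. Named genes are the 8 members, up to 3 called genes per list in its main direction (3 in each where tied) and 1 in the other at 1 CPM or more, 2 neighbours per side and the 5 nearest profiles at 5 CPM or more (pseudocount 0.1 CPM). Some genes that this rule names are not reported here. No sequence is shown because none was in the reference used.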

Additional observations from a re-analysis of the deposited data

How the results depend on the processing

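Scaling by library totals in place of TMM shifted all genes by a median of 0.47 log2 units and changed the most. Genes called were then 5598 higher and 1459 lower, so that 79.3% were higher against 49.3% with TMM, and the members' median was 0.26. It gave 3 lower genes in the list of other synthesis, 8 higher and 1 lower among NAD consumers (median 0.33), 1 lower for breakdown and transport, 5 higher for the methyl cycle (median 0.38), 5 lower for NADPH and 4 called neighbours, with EEF2 at 0.20 and NHP2L1 at 0.31. The list of breakdown and transport also had 1 lower gene with the DESeq2 Wald test and without a filter beyond 1 count.

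The replicate number as a block gave 2598 higher and 2755 lower genes, 3 lower genes for other synthesis and 1 for breakdown and transport, with TMEM163 at -0.10 and the AFMID call lost (adjusted p = 0.0567 with edgeR). Same-numbered libraries deviated together only weakly (correlations of 0.003, -0.12 and 0.046), and fetal library 1 correlated best with lamb library 2 (0.14). These values show no pairing by number, but with 3 libraries per stage they cannot exclude one.

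On leaving out 1 library, 2286 to 2796 genes were higher and 2512 to 2903 lower. The members' median lay between -0.48 and -0.094, higher NAD consumers between 2 and 5, lower genes of breakdown and transport between 1 and 2, and called neighbours between 1 and 2. TMEM163 ranged from -0.59 to 0.30 and RAB3GAP1 from -0.069 to 0.11. In each of the 11 alternatives NMRK2, NMNAT3 and NNT had negative and NMNAT1 and ACMSD positive log2 differences, a description, since the members were chosen on this contrast. Depth limits ACMSD in fetuses, where its counts sum to 4, and NMRK2 and NMNAT3 in lambs, with sums of 20 and 29.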
